A study of Mus musculus with 5 samples.

Results

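Hox genes encode the homeodomain transcription factors that give cells along the head-to-tail axis their positional identity. The 39 Hox genes of the mouse were taken from the deposited count table as the rows whose gene symbol is Hox, a cluster letter from a to d and a number, out of 78334 genes in all. They lie in 4 clusters, with 11 genes in cluster A, 10 in B, 9 in C and 9 in D. Every one of the 39 had at least 1 count in at least 1 library.

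The RNA was labelled as visceral adipose tissue of male C57BL/6 mice, and 5 libraries were sequenced to describe what a diabetes model and curcumin do to this fat. The control (1 library) ate standard chow and received vehicle. The diabetes group (2 libraries) received a single injection of 70 mg/kg streptozotocin, which kills insulin-producing beta cells, when 2 days old, then a diet with 60% of its energy as fat from 3 weeks of age for 8 weeks, and vehicle. The curcumin-treated group (2 libraries) had the same streptozotocin and diet and was gavaged daily with curcumin, a turmeric polyphenol, at 50 mg/kg for 28 days from 11 weeks of age. The control differed from the other groups in both toxin and diet, so their contributions cannot be told apart. Whether the libraries within a group represent different animals is not stated in the labels. The p-values then reflect only the variation among libraries, and some of it may be technical.

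Within a cluster the genes stand in the order of their paralogue numbers, and low numbers are used toward the head while high numbers are used toward the tail. Adult tissues keep much of this embryonic code, so fat depots and segments of the male genital tract carry different sets of active Hox genes. Genes with the same number in different clusters are paralogues and often share functions. In the mouse, Hoxa10, Hoxa11, Hoxa13 and Hoxd13 pattern the genital tract, where loss of Hoxa10 or Hoxa11 gives the vas deferens features of the epididymis.

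The libraries held 25378046 to 42422890 counts. A count of 0 allows up to 3 counts, which is 0.0707 CPM (counts scaled to a library total of 1000000) in curcumin-treated 2 and 0.108 to 0.118 CPM in the others. Markers of the labelled tissue did not mark every library. The adipocyte list (22 of 23 genes found, among them Adipoq and Plin1) held 7.93% of the counts of diabetes 2, 0.760% of curcumin-treated 1 and 0.0686% to 0.155% of the other 3 libraries. The epididymal list (24 genes) held 8.60% to 12.8% of control 1, diabetes 1 and curcumin-treated 2. It held 0.679% of curcumin-treated 1, mostly Crisp1, and 0.00160% of diabetes 2, where 18 of its genes, Lcn8 and Crisp1 included, were at 0. Smooth muscle genes (12) held 5.89% of curcumin-treated 1 and 0.125% to 0.291% of the others. The part of these tissue differences in the Hox values was not tested, and each Hox result is therefore given library by library.

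**Figure D1:**
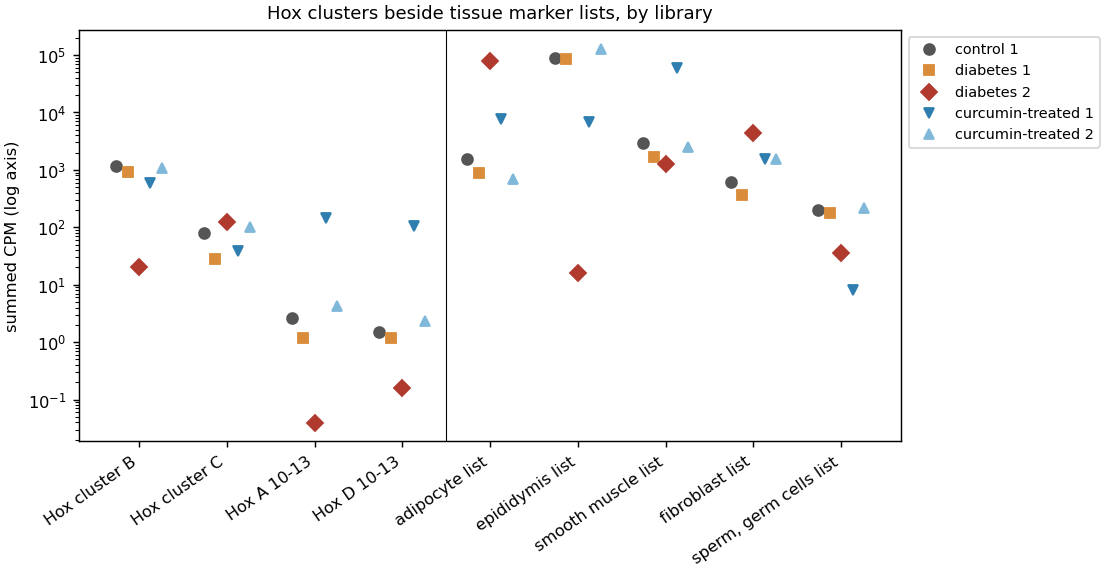
Summed CPM (log axis) of Hox clusters B and C, of paralogues 10 to 13 in clusters A and D, and of tissue marker lists, with 1 point per library. Diabetes 2 is highest in the adipocyte list at 79339 CPM and lowest in cluster B, while curcumin-treated 1 is highest in paralogues 10 to 13 and in smooth muscle at 58874 CPM.

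Summed over the 39 genes, Hox expression stood at 1759 CPM in control 1, at 1308 and 182 CPM in diabetes 1 and 2, and at 1075 and 1632 CPM in curcumin-treated 1 and 2. Diabetes 2 was the low library and stood apart from the other diabetes library. In bulk RNA, fewer cells of a type and less RNA per cell cannot be told apart. With each library scaled by TMM, the sum was 199.8 CPM in diabetes 2 and 1016 to 1784 CPM in the rest.

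The number of Hox genes with at least 10 counts was 30 in control 1, 29 and 23 in diabetes 1 and 2, and 34 and 34 in curcumin-treated 1 and 2. Diabetes 1 held few genes with low counts of any kind, 1292 genes with 1 to 5 counts against 4216 to 19751 in the others. The most abundant member per exon length was Hoxb8 in control 1, diabetes 1 and curcumin-treated 1, Hoxb6 in curcumin-treated 2 and Hoxc8 in diabetes 2. Their levels per length were 193 CPM per kb for Hoxb8 in control 1 and 27.0 CPM per kb for Hoxc8 in diabetes 2.

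**Figure D2:**
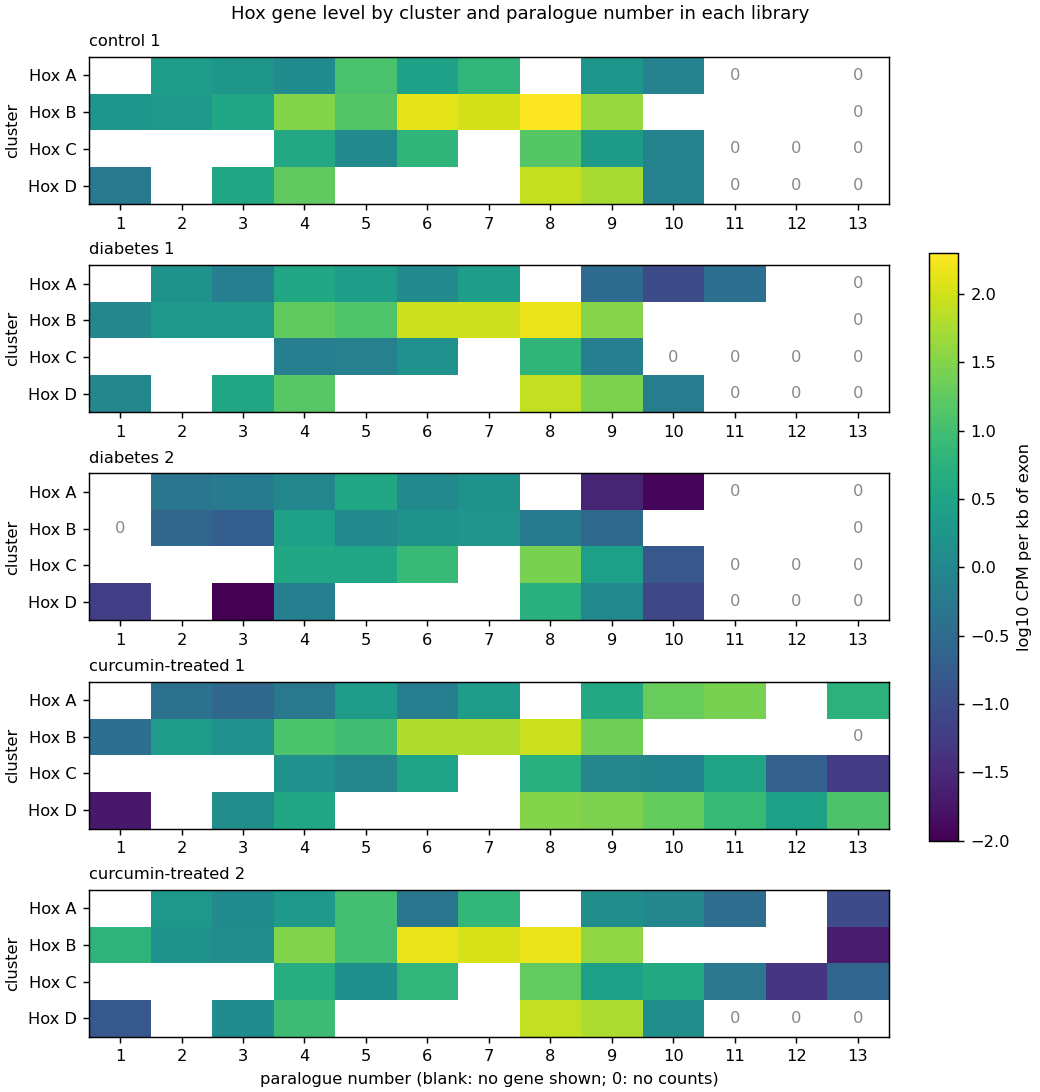
Level of the Hox genes reported, in each library, as log10 CPM per kb of exon (colour), with clusters as rows and paralogue numbers as columns (yellow high, dark blue low). Diabetes 2 lacks the yellow of cluster B, and curcumin-treated 1 has signal at the high-numbered end of clusters A and D, where Hoxd11, Hoxd12 and Hoxd13 are at 0 in the other 4 libraries.

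Cluster B dominated 4 libraries. Its share of Hox counts was 67.7% in control 1 (95% Wilson interval 67.2% to 68.1%), 69.0% in diabetes 1 (68.5% to 69.5%), 54.4% in curcumin-treated 1 (53.8% to 54.98%) and 66.6% in curcumin-treated 2 (66.3% to 67.0%). In diabetes 2 the share of cluster B was 11.1% (10.3% to 12.1%), and cluster C held 67.2% (65.8% to 68.5%). Cluster C held 4.46% of Hox counts in control 1, 2.15% in diabetes 1, and 3.63% and 6.20% in curcumin-treated 1 and 2. Diabetes 2 thus had cluster B and cluster C in the opposite order from the other 4 libraries. Per exon length the order was the same, with cluster C at 64.2% in diabetes 2 and cluster B at 58.2% to 72.4% elsewhere. These intervals cover counting error only.

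Cluster D held 23.6% of Hox counts in control 1, 26.6% and 10.8% in diabetes 1 and 2, and 25.2% and 23.1% in curcumin-treated 1 and 2. Cluster A held 4.24%, 2.26%, 10.8%, 16.7% and 4.06% in the same order. The cluster A share of curcumin-treated 1 was the highest of the 5, and Hoxa10 supplied 36.7% of it.

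The paralogue number set curcumin-treated 1 apart. Paralogues 10 to 13 held 0.326% of Hox counts in control 1 (95% Wilson interval 0.279% to 0.381%), 0.180% in diabetes 1 (0.140% to 0.232%) and 0.260% in diabetes 2 (0.149% to 0.454%). In curcumin-treated 1 and 2 they held 24.0% and 1.02%. The count-weighted mean paralogue number was 7.11 in control 1, 7.15 and 6.75 in diabetes 1 and 2, and 8.13 and 7.13 in curcumin-treated 1 and 2. The share of paralogue 9 alone was 11.6% to 14.6% outside diabetes 2, curcumin-treated 1 included at 13.4%. With the clusters pooled, the step in curcumin-treated 1 thus began at paralogue 10. In cluster A, Hoxa9 was already highest in that library, at 22.3 CPM against 10.2 CPM in control 1.

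**Figure D3:**
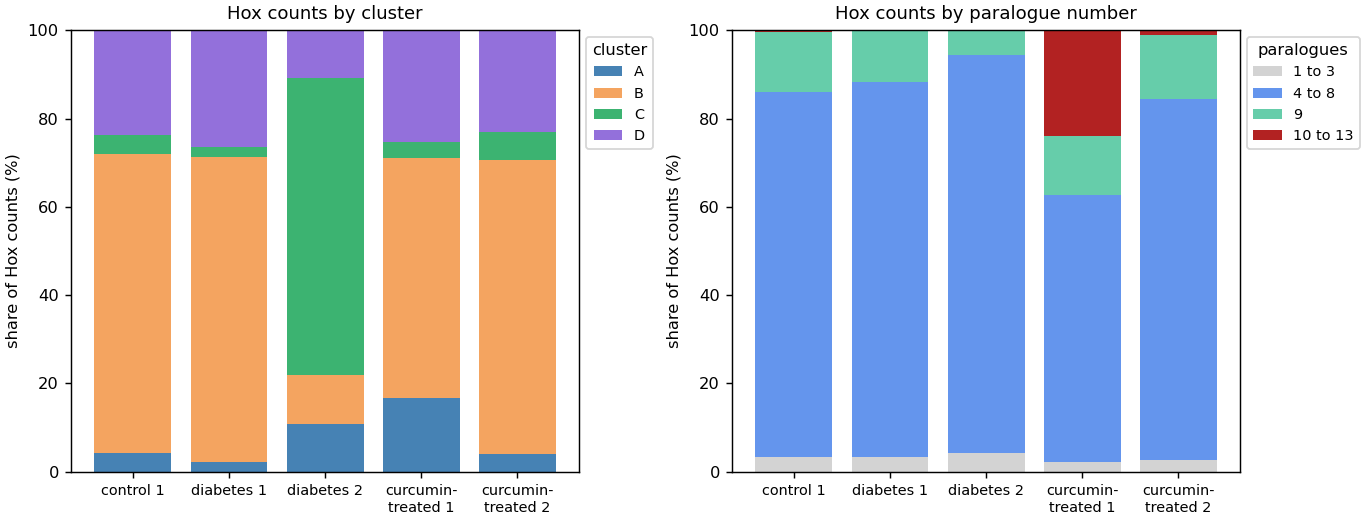
Share of all Hox counts in each library by cluster (left) and by paralogue number (right), as stacked bars that sum to 100%. Cluster C fills 67.2% of diabetes 2, and paralogues 10 to 13 fill 24.0% of curcumin-treated 1 against at most 1.02% of any other library.

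The posterior genes of cluster A were high in curcumin-treated 1. Hoxa10 (ENSMUSG00000000938), a patterning gene of the proximal genital ducts, stood at 2.66 CPM in control 1, at 0.314 and 0.0394 CPM in diabetes 1 and 2, and at 66.0 and 3.18 CPM in curcumin-treated 1 and 2. Hoxa11 (ENSMUSG00000038210), which acts in duct, kidney and limb patterning, stood at 0 CPM in control 1, at 0.864 and 0 CPM in diabetes 1 and 2, and at 62.3 and 0.778 CPM in curcumin-treated 1 and 2. Hoxa13 (ENSMUSG00000038203), a gene of the distal limb and the lower urogenital tract, stood at 0 in control 1 and both diabetes libraries, and at 14.1 and 0.236 CPM in curcumin-treated 1 and 2.

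Curcumin-treated 1 exceeded the next highest library 20.8-fold for Hoxa10 (95% exact interval 17.4 to 24.9), 72.1-fold for Hoxa11 (47.5 to 115) and 59.6-fold for Hoxa13 (32.1 to 125). These intervals come from the counts of a pair of libraries and compare those libraries, not the treatments. Hoxa9, the neighbour of Hoxa10, stood at 10.2 CPM in control 1, at 1.81 and 0.158 CPM in diabetes 1 and 2, and at 22.3 and 7.33 CPM in curcumin-treated 1 and 2. Its lead in curcumin-treated 1 was 2.18-fold over control 1 (1.89 to 2.52).

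Cluster D showed the same library at its posterior end. Hoxd10 (ENSMUSG00000050368), active in hindlimb and lumbar development, stood at 1.48 CPM in control 1, at 1.18 and 0.158 CPM in diabetes 1 and 2, and at 34.8 and 2.38 CPM in curcumin-treated 1 and 2. Hoxd11 (ENSMUSG00000042499) had 932 counts in curcumin-treated 1 (33.5 CPM), Hoxd12 had 197 (7.08 CPM) and Hoxd13 had 869 (31.2 CPM), and each had 0 in the other 4 libraries. Hoxd13 (ENSMUSG00000001819), the last gene of the cluster, patterns digits and the accessory glands of the male tract.

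Curcumin-treated 1 exceeded curcumin-treated 2 in Hoxd10 14.6-fold (95% exact interval 11.9 to 18.1). Against 3 counts in control 1, it was at least 302-fold higher for Hoxd11, at least 63.8-fold for Hoxd12 and at least 281-fold for Hoxd13. In that library the levels per exon length ran from 28.4 CPM per kb for Hoxd9 to 19.2 for Hoxd10, 7.96 for Hoxd11, 2.80 for Hoxd12 and 12.6 for Hoxd13. In control 1 the level per length dropped from 53.9 CPM per kb for Hoxd9 to 0.815 for Hoxd10. The boundary between paralogues 9 and 10 that marked control 1 was therefore not seen in curcumin-treated 1.

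Within curcumin-treated 1, the A and D paralogues were unequal except for number 10. The ratio per exon length of Hoxd10 to Hoxa10 was 0.949 (95% exact interval 0.877 to 1.03). Hoxd11 stood at 0.292 of Hoxa11 (0.269 to 0.316), while Hoxd13 stood at 2.21 times Hoxa13 (1.96 to 2.50). Summed over paralogues 10 to 13, cluster A held 142 CPM and cluster D 107 CPM in that library, against at most 4.20 and 2.38 CPM in any other.

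The windows upstream of Hoxa11, Hoxa13 and Hoxd13 are shown as examples of posterior genes that stood high together in curcumin-treated 1, and those of Hoxb8 and Hoxc4 because clusters B and C changed places in diabetes 2. Each is the 250 bases before the gene start in RefSeq on mouse build GRCm38.p6, 5′ to 3′ on the gene's strand. Capitals mark TTTAT on either strand (written ATAAA on the other), a core that posterior Hox proteins bind in vitro. The windows are Hoxa11 at chr6:52245811-52246060 (minus strand), Hoxa13 at chr6:52260881-52261130 (minus strand), Hoxd13 at chr2:74667975-74668224 (plus strand), Hoxb8 at chr11:96281655-96281904 (plus strand) and Hoxc4 at chr15:103034145-103034394 (plus strand).
Hoxa11: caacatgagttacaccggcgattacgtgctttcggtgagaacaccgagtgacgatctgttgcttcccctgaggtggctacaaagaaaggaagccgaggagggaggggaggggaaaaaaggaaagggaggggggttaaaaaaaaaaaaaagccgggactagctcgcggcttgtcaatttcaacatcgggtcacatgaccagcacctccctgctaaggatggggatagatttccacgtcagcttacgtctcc
Hoxa13: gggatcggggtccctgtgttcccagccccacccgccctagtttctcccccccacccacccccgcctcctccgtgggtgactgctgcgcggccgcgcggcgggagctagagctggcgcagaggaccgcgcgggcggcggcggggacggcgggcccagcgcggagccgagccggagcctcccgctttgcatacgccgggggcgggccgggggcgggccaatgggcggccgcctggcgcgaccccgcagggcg
Hoxd13: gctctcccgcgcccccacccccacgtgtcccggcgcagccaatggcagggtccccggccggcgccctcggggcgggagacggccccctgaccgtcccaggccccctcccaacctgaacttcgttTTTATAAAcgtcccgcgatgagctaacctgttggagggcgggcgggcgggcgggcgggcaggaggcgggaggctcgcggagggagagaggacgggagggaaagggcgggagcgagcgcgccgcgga
Hoxb8: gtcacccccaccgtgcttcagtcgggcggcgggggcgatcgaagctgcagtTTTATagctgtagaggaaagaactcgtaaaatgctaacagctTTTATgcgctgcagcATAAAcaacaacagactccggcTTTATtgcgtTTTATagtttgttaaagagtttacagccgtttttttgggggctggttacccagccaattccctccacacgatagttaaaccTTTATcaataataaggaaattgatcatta
Hoxc4: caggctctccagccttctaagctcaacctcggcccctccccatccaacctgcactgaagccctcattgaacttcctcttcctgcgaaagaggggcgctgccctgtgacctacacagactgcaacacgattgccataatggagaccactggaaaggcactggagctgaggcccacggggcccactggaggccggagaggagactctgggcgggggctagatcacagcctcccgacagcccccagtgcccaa

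Hoxb8 had 6 matches, Hoxd13 had 2 that overlap in TTTATAAA, and Hoxa11, Hoxa13 and Hoxc4 had 0. Among the posterior windows not printed, both of Hoxa10 had 1 match, those of Hoxd11 had 2 and 0, and those of Hoxd10 and Hoxd12 had 0. Of the Hox genes, 22 had an entry in the table, with 24 windows, and 9 of those windows held the motif, against 37.3% of all 32851 windows. A second motif, TGATTNAT on either strand, bound by Hox proteins together with Pbx partners, was in 2 of the 24 Hox windows, those of Hoxa2 and 1 of Hoxd11, and in 2.82% of all windows. CpG dinucleotides numbered 35 in the Hoxa13 window, 31 in Hoxd13, 13 in Hoxa11, 12 in Hoxb8 and 8 in Hoxc4, and the median was 12 over the Hox windows and 6 over all windows. A match describes letters in the window and not a bound site, and no match says only that these letters are not in it.

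The other posterior genes were low in most libraries. Hoxc10 stood at 1.59 CPM in control 1, at 0 and 0.276 CPM in diabetes 1 and 2, and at 1.69 and 8.27 CPM in curcumin-treated 1 and 2. Hoxc11 stood at 6.54 CPM and 1.04 CPM in curcumin-treated 1 and 2 and was at 0 in the other 3 libraries. Both genes thus had their highest level in a curcumin-treated library, though not in the same one. Hoxc13, known for its role in hair, had 26 counts in curcumin-treated 2, 4 in curcumin-treated 1 and 0 elsewhere. Hoxc12 had 6 counts in curcumin-treated 1 and 2 in curcumin-treated 2, and Hoxb13, a gene of the prostate and distal gut, had 2 counts in curcumin-treated 2.

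**Figure D4:**
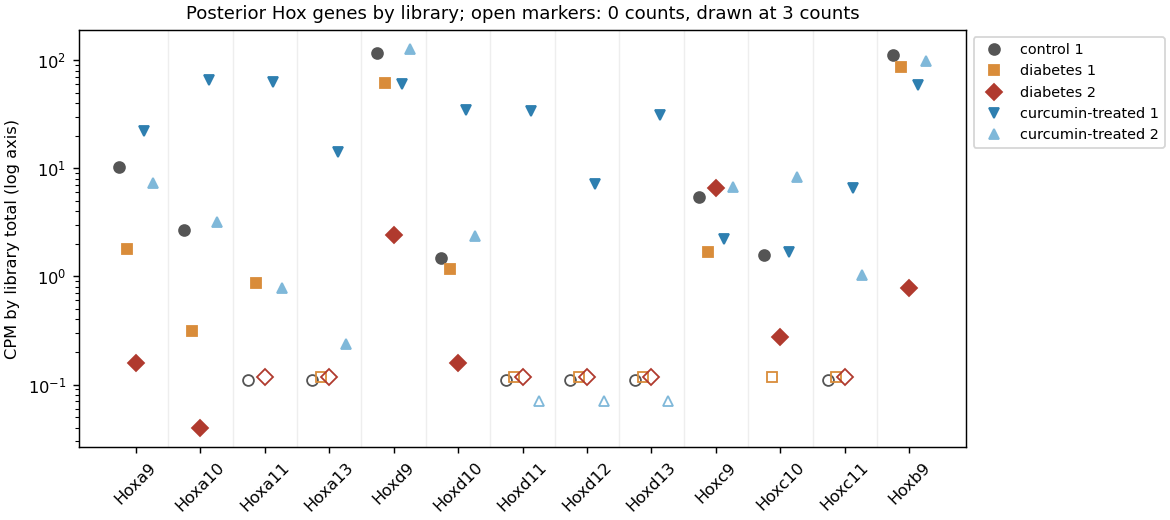
CPM of Hox genes of high paralogue number in each library on a log axis, with genes at 0 drawn at the level that a count of 0 allows. Curcumin-treated 1 is highest for Hoxa10 at 66.0 CPM and Hoxd13 at 31.2 CPM, while Hoxc10 is highest in curcumin-treated 2 at 8.27 CPM.

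The summed share of vas deferens and distal tract genes was highest in the library with high posterior Hox genes. The list of 20 genes held 2.39% of the counts of curcumin-treated 1, 0.227% to 0.591% of control 1, diabetes 1 and curcumin-treated 2, and 0.000694% of diabetes 2. Akr1b7, the mouse vas deferens protein, led it with 74.7% of the list's counts in curcumin-treated 1, at 17874 CPM against 0.118 to 8.70 CPM in the other libraries. Crisp1, which is also in the epididymal list, followed at 5965 CPM there against 0 to 2610 CPM elsewhere. The list did not rise as a set, with a median of 0.395 CPM in curcumin-treated 1 and 0.0985 to 0.814 CPM in the others. Slc38a5 led the list in diabetes 1 (68.9% of its counts) and curcumin-treated 2 (80.7%). Of the list's genes, 1 was at 0 in curcumin-treated 1, 7 in control 1, 9 and 7 in diabetes 1 and 2, and 5 in curcumin-treated 2. Curcumin-treated 1 also held the most genes with 1 to 5 counts of any kind, 19751 against 4216 in control 1. Smooth muscle genes were also highest in curcumin-treated 1, with Myh11 at 13342 CPM against 37.4 to 318 CPM elsewhere. The part of either list in the posterior Hox levels was not tested.

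Cluster B, which carries trunk-level identity in its central genes, was low in diabetes 2 from end to end. Hoxb8 (ENSMUSG00000056648) stood at 509 CPM in control 1, at 393 and 1.54 CPM in diabetes 1 and 2, and at 240 and 392 CPM in curcumin-treated 1 and 2. Hoxb6 (ENSMUSG00000000690) stood at 260 CPM in control 1, at 177 and 3.07 CPM in diabetes 1 and 2, and at 120 and 299 CPM in curcumin-treated 1 and 2. Both genes put diabetes 1 among the control and curcumin-treated libraries and diabetes 2 far under all of them.

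Hoxb7, another central gene, stood at 165 CPM in control 1, at 147 and 2.72 CPM in diabetes 1 and 2, and at 93.2 and 166 CPM in curcumin-treated 1 and 2. Hoxb9, a gene of thoracic patterning, stood at 110 CPM in control 1, at 86.0 and 0.788 CPM in diabetes 1 and 2, and at 58.9 and 99.0 CPM in curcumin-treated 1 and 2. The order of the libraries was similar for both, with curcumin-treated 1 the lowest after diabetes 2.

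Hoxb4, which is also known in blood stem cells, stood at 80.5 CPM in control 1, at 46.0 and 7.33 CPM in diabetes 1 and 2, and at 31.5 and 77.4 CPM in curcumin-treated 1 and 2. Hoxb5 stood at 39.2 CPM in control 1, at 35.7 and 3.07 CPM in diabetes 1 and 2, and at 26.5 and 28.9 CPM in curcumin-treated 1 and 2. The gap between diabetes 2 and the next lowest library, curcumin-treated 1, was 4.29-fold for Hoxb4, 8.63-fold for Hoxb5, 38.9-fold for Hoxb6, 34.3-fold for Hoxb7, 156-fold for Hoxb8 and 74.7-fold for Hoxb9. It was thus wider for the genes from number 6 on than for Hoxb4 and Hoxb5. For Hoxb2 and Hoxb3 the next lowest library was curcumin-treated 2, at gaps of 5.90-fold and 6.55-fold. Exons of Hoxb3 share 52.9% of their length with the antisense gene Hoxb3os, and reads of overlapping genes cannot be told apart without the strand setting of the counting.

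Hoxb1, a hindbrain gene at the anterior end, stood at 4.26 CPM in control 1, at 2.24 and 0 CPM in diabetes 1 and 2, and at 0.863 and 14.6 CPM in curcumin-treated 1 and 2. Curcumin-treated 2 exceeded curcumin-treated 1 by 16.9-fold, so the treated libraries were again apart.

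Hoxd3, Hoxd4, Hoxd8 and Hoxd9 were lowest in diabetes 2, as were Hoxb1 to Hoxb9, whereas Hoxd1 was lowest in curcumin-treated 1. Hoxd8 stood at 231 CPM in control 1, at 223 and 14.9 CPM in diabetes 1 and 2, and at 86.8 and 217 CPM in curcumin-treated 1 and 2. Hoxd9 stood at 115 CPM in control 1, at 61.6 and 2.40 CPM in diabetes 1 and 2, and at 60.7 and 126 CPM in curcumin-treated 1 and 2. Hoxd4 stood at 52.9 CPM in control 1, at 44.6 and 2.13 CPM in diabetes 1 and 2, and at 11.3 and 26.1 CPM in curcumin-treated 1 and 2. In diabetes 2, Hoxd8 nevertheless exceeded Hoxb8, its B paralogue. The ratio per exon length of Hoxd8 to Hoxb8 was 9.28 in diabetes 2 (95% exact interval 6.67 to 13.3) and 0.347 to 0.546 in the other libraries. Hoxd3, which overlaps Hoxd4 and Gm28230 in its exons, had 1 count in diabetes 2 and 153 to 387 elsewhere. Hoxd1 had 28 counts in control 1, 47 and 3 in diabetes 1 and 2, and 1 and 12 in curcumin-treated 1 and 2.

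Cluster C did not share the low level of diabetes 2. Hoxc8 (ENSMUSG00000001657), a thoracic-level gene, stood at 42.2 CPM in control 1, at 18.7 and 76.4 CPM in diabetes 1 and 2, and at 14.2 and 51.7 CPM in curcumin-treated 1 and 2. Hoxc6 stood at 15.7 CPM in control 1, at 3.65 and 19.3 CPM in diabetes 1 and 2, and at 7.41 and 16.1 CPM in curcumin-treated 1 and 2. Hoxc5 stood at 3.59 CPM in control 1, at 2.28 and 10.2 CPM in diabetes 1 and 2, and at 2.77 and 4.43 CPM in curcumin-treated 1 and 2. For these 3 genes diabetes 2 was the highest library, above the next by 1.48-fold for Hoxc8 (95% exact interval 1.39 to 1.57), 1.20-fold for Hoxc6 (1.07 to 1.35) and 2.31-fold for Hoxc5 (1.91 to 2.80).

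Hoxc4 stood at 9.92 CPM in control 1, at 1.77 and 9.54 CPM in diabetes 1 and 2, and at 3.77 and 12.4 CPM in curcumin-treated 1 and 2. Hoxc9 stood at 5.40 CPM in control 1, at 1.69 and 6.58 CPM in diabetes 1 and 2, and at 2.23 and 6.65 CPM in curcumin-treated 1 and 2. Diabetes 2 lay within the range of the other libraries for both, and diabetes 1 was the lowest library.

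Ratios within a library do not depend on its depth. Per exon length, Hoxb8 stood at 12.97 times Hoxc8 in control 1, 22.6 and 0.0216 times in diabetes 1 and 2, and 18.2 and 8.15 times in curcumin-treated 1 and 2. In diabetes 2, Hoxc8 therefore stood at 46.2 times Hoxb8. The ratio of Hoxb9 to Hoxc9 was 0.113 in diabetes 2 and 14.1 to 48.1 elsewhere, and that of Hoxb6 to Hoxc6 was 0.196 against 19.8 to 59.3. For Hoxb5 to Hoxc5 the ratio was 0.333 in diabetes 2 against 7.24 to 17.4, and for Hoxb4 to Hoxc4 it was 0.769 against 6.26 to 26.0. All 5 pairs put diabetes 2 on the other side of 1 from the other 4 libraries.

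**Figure D5:**
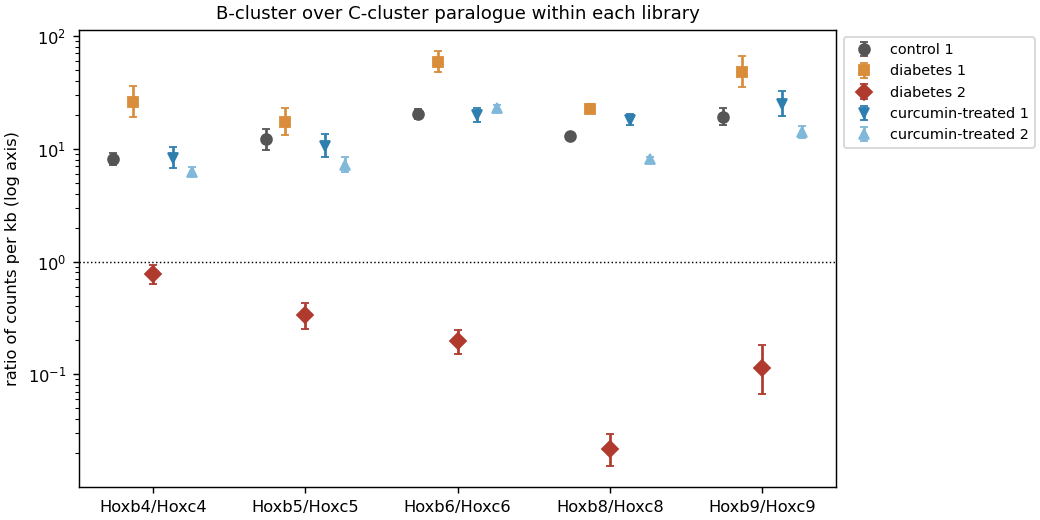
Ratio of the cluster B to the cluster C paralogue within each library, from counts per kb of exon on a log axis, with 95% exact intervals for counting error. Diabetes 2 lies under 1 in all 5 pairs, from 0.0216 for Hoxb8 over Hoxc8 to 0.769 for Hoxb4 over Hoxc4, and the other libraries lie at 6.26 or more.

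Other tissue lists also stood high in diabetes 2. Fibroblast genes (10) held 0.437% of its counts against 0.0360% to 0.156% in the other libraries, and macrophage and T cell genes (13) held 0.253% against 0.0149% to 0.0463%. Adipoq was at 1610 CPM there against 1.34 to 180 CPM elsewhere. Gpx5, an epididymal peroxidase, had 2 counts there against 545 to 2350749. The part of these lists in the balance of clusters B and C was not tested.

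Over all 5 libraries, the highest library was 4.48 to 7.13 times the lowest for Hoxa2 to Hoxa7 and 8.77 to 97.3 times for Hoxb2 to Hoxb7. At number 9 it was 141 times for Hoxa9 and 139.9 times for Hoxb9. The wide range of Hoxb2 to Hoxb7 came from diabetes 2, their lowest library. Without diabetes 2, the range was 1.48-fold to 2.56-fold for Hoxb4 to Hoxb7. Hoxb2 then ran from 5.35 to 7.95 CPM and Hoxb3 from 5.42 to 14.4 CPM. The cluster A genes varied more there, 3.06-fold for Hoxa7 and 4.83-fold to 7.13-fold for Hoxa2 to Hoxa6. Hoxa5, known for lung and trunk patterning, stood at 21.5 CPM in control 1, at 4.83 and 6.82 CPM in diabetes 1 and 2, and at 4.46 and 19.2 CPM in curcumin-treated 1 and 2. Hoxa7 stood at 19.4 CPM in control 1, at 7.39 and 4.57 CPM in diabetes 1 and 2, and at 6.69 and 20.5 CPM in curcumin-treated 1 and 2. Hoxa3, a gene of the pharyngeal region, stood at 11.1 CPM in control 1, at 4.24 and 3.70 CPM in diabetes 1 and 2, and at 1.69 and 7.07 CPM in curcumin-treated 1 and 2. Control 1 and curcumin-treated 2 were the high libraries for all 3. Hoxa2 and Hoxa4 were each lowest in curcumin-treated 1, at 0.755 and 0.827 CPM, and highest in control 1 at 4.44 CPM and diabetes 1 at 5.89 CPM in that order.

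Over all 39 genes, the correlation of log2(CPM + 0.1) between libraries was 0.949 for control 1 with curcumin-treated 2, 0.946 for control 1 with diabetes 1 and 0.899 for diabetes 1 with curcumin-treated 2. The pair of diabetes libraries had 0.651 and the pair of curcumin-treated libraries 0.546. The lowest was 0.207, for diabetes 2 with curcumin-treated 1. These are descriptions across genes, which share a library and a cluster and are not independent replicates. Libraries of the same group were thus less alike in their Hox profile than control 1, diabetes 1 and curcumin-treated 2 were among themselves.

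The first comparison between groups asked what curcumin changes in diabetes. Of the 39 genes, 37 passed edgeR's filter on low counts, and Hoxb13 and Hoxc12 did not. None of the 37 passed an adjusted p of 0.05 in edgeR's quasi-likelihood test, where 0% of the 29855 genes tested passed. Limma-voom also called 0 genes, and at an unadjusted p under 0.05 edgeR's counts were 5 Hox genes and 696 genes in all. The median log2 fold change of the 37 was 0.91 against 0.05 over all tested genes. Of the 37, 28 were positive and 9 negative, against 15448 positive and 14371 negative of all 29855 tested genes. Hoxa13, Hoxc11, Hoxc13, Hoxd11, Hoxd12 and Hoxd13 were at 0 in both diabetes libraries and could only be positive. These genes passed the filter through curcumin-treated libraries alone.

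Hoxa10 had the smallest p, with 34.6 ± 44.5 CPM in the curcumin-treated and 0.177 ± 0.194 CPM in the diabetes libraries (SD, n = 2 each). Its log2 fold change was 7.53 (SE 1.90), with an adjusted p of 0.852 in edgeR's test. With 1 library left out it ran from 4.28 without curcumin-treated 1 to 9.45 without diabetes 1. Hoxa9 had a log2 fold change of 3.93 (SE 1.36), which ran from 3.07 without curcumin-treated 1 or diabetes 2 to 6.36 without diabetes 1. Hoxd10 had one of 4.76 (SE 1.67), which ran from 1.99 without curcumin-treated 1 to 6.65 without diabetes 1. Hoxc11 was at 3.79 ± 3.89 CPM with curcumin (SD, n = 2) and at 0 in diabetes, hence at least 32.1-fold higher against 3 counts per library. In edgeR's test these 4 genes were among the 5 with an unadjusted p under 0.05. Adjusted over all tested genes by edgeR's test, all 4 had the same p, 0.852, and none passed the threshold.

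Both curcumin-treated libraries lay above both diabetes libraries in 7 of the 37 genes (18.9%, against 17.9% of all tested genes), namely Hoxa9, Hoxa10, Hoxa13, Hoxc10, Hoxc11, Hoxc13 and Hoxd10. All 7 are of paralogue 9 or higher. Of these, Hoxa13, Hoxc11 and Hoxc13 were at 0 in the control and both diabetes libraries. They passed the filter through curcumin-treated libraries alone and could not lie below, and Hoxc13 had only 4 counts in curcumin-treated 1. Both curcumin-treated libraries lay below in 1 gene, Hoxa6 (2.7%, against 9.72% of all tested genes), at 0.611 and 0.424 CPM against 0.943 and 0.985 CPM. The share above was near the background, and the counts depend on single libraries. The count above was 22 without diabetes 1, 11 without diabetes 2, 19 without curcumin-treated 1 and 12 without curcumin-treated 2. The count below was 5, 9, 1 and 8 in the same order. With 2 libraries against 2, an exact two-sided permutation test of a single gene cannot go below p = 0.333.

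DESeq2, an alternative test, called 4 Hox genes in this comparison, where it called 0.475% of the genes with an adjusted p. They were Hoxa10 (adjusted p 0.00228 in DESeq2), Hoxa13 (0.0495), Hoxd11 and Hoxd13. All the counts of Hoxd11 and Hoxd13 came from curcumin-treated 1. Most counts of the other called genes in the treated libraries also came from it. Curcumin-treated 1 and 2 had 391 and 10 counts of Hoxa13 and 1837 and 135 of Hoxa10. Hoxa13, Hoxd11 and Hoxd13 were at 0 in both diabetes libraries and passed the filter through curcumin-treated libraries alone.

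The next comparison was of diabetes with the control library. edgeR's test called 0 of the 37 Hox genes and 0% of all tested genes, limma-voom called 0, and 0 Hox genes and 440 genes in all had an unadjusted p under 0.05. The 4 smallest p values belonged to Hoxa9, Hoxa10, Hoxa7 and Hoxa5. Hoxa9 was at 0.983 ± 1.17 CPM in diabetes (SD, n = 2) and 10.2 CPM in the control, a log2 fold change of -3.30 (SE 1.45). For Hoxa10 it was -3.79 (SE 1.79), for Hoxa7 -1.57 (SE 0.93) and for Hoxa5 -1.72 (SE 1.06), and each adjusted p was 1 in edgeR's test. Without diabetes 1 the value was -5.75 for Hoxa9 and -5.71 for Hoxa10, and without diabetes 2 it was -2.46 and -3.02 in that order.

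Both diabetes libraries lay below the control in 21 of the 37 genes (56.8%, against 34.5% of all tested genes) and above it in 0 (against 17.3%). Hoxa13, Hoxc11, Hoxc13, Hoxd11, Hoxd12 and Hoxd13, which are among the 37, were at 0 in all these libraries and could lie on neither side. The median log2 fold change was -0.96 over the 37 and 0.07 over all tested genes. The control is a single library, so its part in these counts cannot be told apart from the diabetes model. DESeq2 called 0 Hox genes here, where it called 0.282% of the genes with an adjusted p.

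The third comparison set curcumin-treated diabetes against the control, and shares the curcumin-treated libraries with the first and the control with the second. edgeR's test called 0 of the 37 genes and 0% of all tested genes, limma-voom called 0, and 1 Hox gene and 112 genes in all had an unadjusted p under 0.05. Hoxc11, Hoxa11 and Hoxa13 were at 0 in the control, against which the mean of the treated libraries was at least 34.1-fold, 284-fold and 64.4-fold higher. In curcumin-treated 2 alone they stood at 1.04, 0.778 and 0.236 CPM, against a limit of 0.111 CPM in the control, so curcumin-treated 1 set most of these bounds. Hoxa10 had a log2 fold change of 3.74 (SE 2.10), which ran from 0.49 without curcumin-treated 1 to 4.64 without curcumin-treated 2. Each adjusted p was 1 in edgeR's test. DESeq2 called Hoxd11 and Hoxd13 (adjusted p 0.00011 each), both at 0 in curcumin-treated 2, where it called 0.258% of genes.

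Both treated libraries lay below the control in 14 genes (37.8%, against 34% of all tested genes) and above it in 7 (18.9%, against 24.6%). Neither share was far from its background. Among the genes above, Hoxa11, Hoxa13, Hoxc11 and Hoxc13 were at 0 in the control and could not lie below it. Hoxd11, Hoxd12 and Hoxd13 were at 0 in the control and curcumin-treated 2 and could lie on neither side. The median log2 fold change was -0.13 over the 37 and 0.17 over all tested genes, which scaling by library totals moved to -0.31 and 0.03. Over the 5 libraries, the highest CPM fell in control 1 for 11 of the 37 genes (29.7%, against 18.6% of all tested genes), in diabetes 1 for 3 (8.11%, against 22.9%) and in diabetes 2 for 4 (10.8%, against 22%). It fell in curcumin-treated 1 for 10 (27%, against 21.2%) and in curcumin-treated 2 for 9 (24.3%, against 15.3%). Part of this was fixed by the filter on low counts. Hoxd11, Hoxd12 and Hoxd13 had counts in curcumin-treated 1 alone, and Hoxa13, Hoxc11 and Hoxc13 in the curcumin-treated libraries alone.

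Among genes that act with Hox proteins, Meis1 and Meis2 set curcumin-treated 1 apart. Of the 9 cofactors (Pbx, Meis and related homeodomain proteins that bind DNA beside Hox proteins), edgeR's test called 0 in each comparison. Meis2 stood at 4.44 CPM in control 1, at 2.48 and 8.20 CPM in diabetes 1 and 2, and at 118 and 3.39 CPM in curcumin-treated 1 and 2. Meis1 stood at 11.9 CPM in control 1, at 5.66 and 8.59 CPM in diabetes 1 and 2, and at 103 and 11.0 CPM in curcumin-treated 1 and 2. Both Meis genes were high in the library with high posterior Hox genes, and diabetes 2 lay within the range of the other libraries for both. Pbx2 ranged from 30.1 CPM in diabetes 2 to 61.8 CPM in curcumin-treated 1. Pbx3 went another way, at 9.13 CPM in curcumin-treated 1 and highest in curcumin-treated 2 at 23.2 CPM. The 9 cofactors summed to 154 CPM in diabetes 2, close to the 169 CPM of diabetes 1, and to 473 CPM in curcumin-treated 1.

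Of the 17 long noncoding RNAs of the Hox clusters, 11 were found and 10 tested, and edgeR's test called 0 in each comparison. Hoxa11os, antisense to Hoxa11, stood at 0.666 CPM in control 1, 0 in both diabetes libraries, and 68.2 and 0.212 CPM in curcumin-treated 1 and 2. It shares 35% of the exon length of Hoxa11, so reads there cannot be assigned without the strand setting. Hoxb5os stood at 42.9 CPM in control 1, at 54.3 and 1.54 CPM in diabetes 1 and 2, and at 32.4 and 90.7 CPM in curcumin-treated 1 and 2, low in the same library as the cluster B genes. Haglr, beside cluster D, ranged from 1.22 CPM in diabetes 2 to 33.8 CPM in curcumin-treated 2, and Hoxd3os1 from 5.36 CPM in diabetes 2 to 30.3 CPM in control 1.

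Transcription factors of the Wolffian duct, the embryonic source of epididymis and vas deferens, summed to 30.9 CPM in diabetes 2, 63.3% of it Osr1, and to 483 to 1017 CPM in the other libraries. Pax8 stood at 241 CPM in control 1, at 136 and 0 CPM in diabetes 1 and 2, and at 160 and 166 CPM in curcumin-treated 1 and 2. Pax2 stood at 120 CPM in control 1, at 106 and 0 CPM in diabetes 1 and 2, and at 126 and 46.3 CPM in curcumin-treated 1 and 2. Both were thus present in the 4 libraries led by cluster B. Gata2 reached 252 CPM in curcumin-treated 1 against 4.10 to 21.1 CPM elsewhere, and Gata3 reached 228 CPM against 0.867 to 46.8 CPM. Of the 16 genes of the list, 8 were at 0 in diabetes 2, and edgeR's test called 0 of 15 in each comparison.

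Regional factors of mesoderm and fat (18 genes, 16 tested, 0 called by edgeR's test in each comparison) were led by Nr2f2, which stood at 199 CPM in curcumin-treated 1 and 14.9 to 50.3 CPM elsewhere. Nr2f1 was at 46.5 CPM there against 0.511 to 7.38 CPM. Tcf21 ranged from 4.05 CPM in diabetes 1 to 20.9 CPM in control 1, and Hand2 from 0.0370 CPM in control 1 (1 count) to 12.1 CPM in curcumin-treated 1.

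The regulators upstream of Hox genes, among them Polycomb and trithorax members (18 genes, 16 tested), had 0 called by edgeR's test in each comparison. Phc2 ranged from 43.9 to 114 CPM, Kmt2b from 54.3 to 111 CPM and Cbx7 from 20.7 to 82.2 CPM, each with its lowest level in diabetes 2. Zbtb16 went the other way, at 66.0 CPM in diabetes 2 against 0.966 to 10.4 CPM elsewhere. In the retinoic acid pathway, which sets Hox expression in the embryo (16 genes, 15 tested, 0 called), Aldh1a1, a retinoic acid synthesising enzyme, stood at 916 CPM in control 1, at 1018 and 254 CPM in diabetes 1 and 2, and at 229 and 775 CPM in curcumin-treated 1 and 2. It was low in diabetes 2 and curcumin-treated 1. The receptor gene Rxra ranged from 41.9 CPM in control 1 to 148 CPM in diabetes 2, and Rxrb from 34.3 CPM in diabetes 1 to 79.2 CPM in curcumin-treated 1.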

How the data were processed

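Per the labels' protocols, poly-A RNA was sequenced from a kit that keeps strand, with reads from both ends. Raw counts for each Ensembl gene were deposited by the authors as integers, with 78334 genes in the table. FastQC, featureCounts and mouse build GRCm39 appear in the submitters' processing notes. No aligner, annotation release or strand setting was given in the sources used. Gene IDs gave a symbol for 51486 genes (65.7%).

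CPM values are counts over the library total. CPM per kb uses union exon lengths of GENCODE vM21 on GRCm38, known for all 39 Hox genes, and 16 of these share exon bases with another gene. Total counts ran from 25378046 to 42422890. Shares carry 95% Wilson intervals and ratios exact binomial intervals, which cover counting error only.

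A single model of all 5 libraries gave the 3 comparisons, using the quasi-likelihood test of edgeR 4.0.16 (robust, TMM, filterByExpr, two-sided; R 4.3.3), adjusted by Benjamini-Hochberg over 29855 genes at a threshold of 0.05. The fit had 2 residual degrees of freedom and a biological coefficient of variation of 1.07, with the single control assumed to vary like the other groups. Alternatives were DESeq2 1.42.0, limma-voom 3.58.1, other scalings and filters, a replicate block and each library left out. Some alternatives were added after seeing the data. The test was checked on simulated data, with pass marks set only at a spread far under that of these data.

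Members and lists were chosen with earlier results of these data known. By the naming rule, up to 6 Hox genes per cluster with the highest summed CPM have every library's value printed, the 4 with the smallest p per comparison have fold changes, and up to 4 genes of each related list have levels. Other genes were named after their values were seen. All 18 lists were summed, and those of germ cells, testis, mesothelium, endothelium, digestive organs and kidney held at most 0.0217%, 1.84%, 0.127%, 0.0395%, 0.0129% and 0.00399% of any library. The 1.84% of the testis list was in diabetes 1, where 1 gene, Clu, made up 99.3% of it. Values of 3 genes, 1 of them a Hox gene that stays in the sums and counts, are not reported here.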

Additional observations from a re-analysis of the deposited data

How the results depend on the processing

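The count of genes called by DESeq2 was 95 for curcumin-treated against untreated diabetes, 58 for diabetes against control and 77 for curcumin-treated against control, where edgeR's test and limma-voom called 0. All 3 comparisons stayed at 0 calls in edgeR under the other scalings and filters and with each library left out. The fold changes of the named Hox genes kept their sign in 127 alternatives, and 1 passed the threshold, Hoxa10 in DESeq2. Part of this agreement in sign was fixed in advance. Hoxc11 was at 0 in diabetes and the control, and Hoxa11 and Hoxa13 at 0 in the control. Their named fold changes could not reverse, and Hoxa13 had no value without curcumin-treated 1. With 0 genes called in edgeR and limma-voom, staying under the threshold says nothing about stability, and sizes moved: with a library left out, Hoxa10 ran from 0.49 to 4.64 in curcumin-treated against control. The number of tested Hox genes with both curcumin-treated libraries above both diabetes libraries was 7 and ran from 11 to 22 with a library left out; the number below was 1 and ran from 1 to 9. These were chosen after seeing the data, and the smaller number of libraries makes non-overlap easier.

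Deviations of diabetes 1 and curcumin-treated 1 from their group means correlated at -0.41 over 29855 genes. With 2 libraries per group, whose tissue lists differ, this value cannot show whether libraries of the same replicate number belong together. With the replicate block, edgeR called 0 genes, and the log2 fold change of Hoxa10 was 7.01. A crossed pairing, chosen after seeing the data, also called 0. No paired analysis was possible for the comparisons with the control because it shares only 1 number with each other group. Shares and levels per library moved beyond counting error in 31 of 40 recomputations per exon length, by TMM or without the leading gene. At these depths, genes at 0 may hold up to 3 counts.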
